A study of Homo sapiens with 36 samples.

Results

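The genes described here are 10 genes of actin-based contraction and of the smooth muscle programme, MYL9, ACTA2, TAGLN, TAGLN2, TPM1, TPM2, CNN2, CALD1, MYH9 and FLNA, out of 57500 gene IDs counted. They were listed by name, as contractile genes of the kind driven by serum response factor (SRF), and each was found once among the Ensembl gene IDs after matching to GENCODE release 29. The genes were chosen by name on earlier results of these libraries, namely their measured differences between lines, with knockdown and with acidic bile salts. Calls on these 10 genes in those comparisons therefore describe them and give no independent support. A further 47 genes of the same pathway were listed by function, also with earlier results known.

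Contraction in non-muscle and smooth muscle cells rests on actin filaments pulled by myosin II. Phosphorylation of the regulatory light chain by myosin light chain kinase switches the motor on, and tropomyosins, calponins, caldesmon and transgelins bind the filaments and tune how myosin and cross-linkers reach them. SRF binds the CArG box in the promoters of many of these genes, and its cofactors of the MRTF family leave the cytoplasm when free actin monomer is used up by polymerization. In carcinoma cells the same genes are best known from stress fibres and cell migration.

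PolyA RNA was sequenced from OE33 and FLO1, which are human esophageal adenocarcinoma cell lines labelled epithelial. Each line was stably transduced with shAPE1#1 or shAPE1#3, which target APE1, the base excision repair endonuclease encoded by APEX1, or with the non-targeting shControl. Cells of every kind were either exposed for 20 min to an acidic bile salt cocktail (ABS, 200 µM at pH 4) with 6 h of recovery, or left unexposed, so the series addresses how APE1 bears on the transcriptional response to simulated reflux. Each of the 12 groups had 3 libraries, described in the labels as independent biological replicates, and the p-values measure the spread between those libraries. All groups, controls included, were shRNA-transduced cultures, and the labels do not say whether a culture was a clone or a pool. OE33 was grown in RPMI1640 and FLO1 in DMEM, so line and medium cannot be told apart.

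Library totals were 20.65 to 38.02 M counts (M, 1000000) in OE33 and 21.75 to 40.65 M in FLO1. APEX1 was 8.14-fold lower with shAPE1#1 and 8.80-fold lower with shAPE1#3 in unexposed OE33 than in shControl, and 7.85-fold and 5.36-fold lower in FLO1. Epithelial defining genes matched the label in OE33 and only in part in FLO1. The median of EPCAM, an epithelial adhesion molecule, was 557 CPM (counts per 1000000 counts) in OE33 and 0.710 CPM in FLO1, and that of CDH1, which encodes E-cadherin, was 389 CPM in OE33 and 9.45 CPM in FLO1, while KRT8 and KRT18 were abundant in both lines. Differentiated smooth muscle markers (MYH11, DES, LMOD1, ACTG2, CNN1 and SYNPO2) summed to 0.446 to 1.35 CPM in OE33 libraries and 1.84 to 5.19 CPM in FLO1 libraries, and DES was at 0 in 16 of 18 OE33 libraries. In FLO1, replicate 2 of the shControl group after ABS stood apart in several of the 10 genes, with MYH9 at 3844 CPM against 2805 and 2942 CPM in the other replicates and FLNA at 2274 CPM against 1436 and 1619 CPM. In OE33, replicate 3 of the shControl group after ABS held fibroblast markers (COL1A1, COL1A2, COL3A1, DCN, LUM, PDGFRA, PDGFRB and THY1) summing to 21.0 CPM, against 5.30 and 4.14 CPM in replicates 1 and 2. Calls and values that change without these libraries are given beside the results.

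Promoter windows from 250 bases before to 50 bases after annotated starts were found for 8 of the 10 genes in RefSeq, on GRCh38.p14. The CArG box, whose form reads as itself on the opposite strand, occurred in the windows of CNN2 at position -89 and of FLNA at position -94 from the start. It occurred in 1.29% of the 35116 windows of all genes. CArG-like runs, in which 1 of the 6 core letters is neither A nor T, occurred in 6.94% of all windows, at positions -121 and -71 in 1 of the windows of ACTA2 and at position -26 in 1 of the 4 windows of CALD1. The windows of TAGLN2, TPM1, TPM2 and MYH9 held neither, which says only that these letters are absent from these stretches. The windows of FLNA and CNN2 are shown because they hold a CArG box, and that of ACTA2 because it carries a pair of CArG-like runs. FLNA and CNN2 were called in OE33 with knockdown. So were TPM1 and MYH9, whose windows held no such run, and MYL9, for which no window was found. ACTA2 was called in no comparison. Each reads 5′ to 3′ with the CArG or CArG-like run in capitals.
FLNA, chrX:154374585-154374884, minus strand: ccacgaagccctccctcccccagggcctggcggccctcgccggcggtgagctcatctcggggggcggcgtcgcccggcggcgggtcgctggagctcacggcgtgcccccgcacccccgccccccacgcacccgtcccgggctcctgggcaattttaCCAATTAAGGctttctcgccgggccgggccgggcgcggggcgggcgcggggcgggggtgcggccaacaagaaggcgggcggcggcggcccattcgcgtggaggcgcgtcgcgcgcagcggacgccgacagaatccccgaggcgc
CNN2, chr19:1026358-1026657, plus strand: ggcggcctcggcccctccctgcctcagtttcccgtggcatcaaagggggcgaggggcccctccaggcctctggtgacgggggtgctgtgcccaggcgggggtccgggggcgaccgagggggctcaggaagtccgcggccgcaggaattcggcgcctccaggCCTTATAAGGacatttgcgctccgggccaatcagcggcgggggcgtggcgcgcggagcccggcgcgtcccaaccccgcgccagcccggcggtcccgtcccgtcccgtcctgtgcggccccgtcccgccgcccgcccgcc
ACTA2, chr10:88952724-88953023, minus strand: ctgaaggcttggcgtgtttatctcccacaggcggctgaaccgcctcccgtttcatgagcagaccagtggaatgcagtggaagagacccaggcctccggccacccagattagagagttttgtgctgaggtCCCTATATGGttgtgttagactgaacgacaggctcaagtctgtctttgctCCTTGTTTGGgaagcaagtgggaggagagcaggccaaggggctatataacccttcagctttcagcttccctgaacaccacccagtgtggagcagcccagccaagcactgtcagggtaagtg

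The baseline was compared between unexposed shControl cells. OE33 had far less of the myosin regulatory light chain, of a major tropomyosin and of transgelin than FLO1, and similar amounts of filamin A and of transgelin 2. Of the 10 genes, 6 were called lower in OE33 and none higher at an adjusted p under 0.05 (quasi-likelihood test of edgeR, adjusted by Benjamini-Hochberg over all genes tested, the rule for every call here), beside 77.6% of the 18199 genes tested that were called in either direction and 39.9% that were called lower. The median log2 fold change of the 10 genes was -1.06, and that of all genes tested was -0.06.

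MYL9 (ENSG00000101335; GRCh38 chromosome 20, 36541484 to 36551447, plus strand) encodes a regulatory light chain of smooth muscle and non-muscle myosin II. It had 0.854, 1.37 and 0.721 CPM in OE33 shControl and 494, 461 and 557 CPM in FLO1 shControl, a log2 fold change of -8.87 ± 0.19 (SE). No OE33 library came near the FLO1 range.

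TPM1 (ENSG00000140416; chromosome 15, 63042632 to 63071915, plus strand), a tropomyosin that lies along actin filaments, had 36.6, 41.8 and 36.4 CPM in OE33 and 804, 863 and 805 CPM in FLO1 (log2 fold change -4.29 ± 0.08). TAGLN (ENSG00000149591; chromosome 11, 117199321 to 117204782, plus strand), the actin-binding transgelin also called SM22, had 1.78, 1.27 and 1.34 CPM in OE33 and 10.8, 10.4 and 11.9 CPM in FLO1 (-2.78 ± 0.17). In both genes every OE33 library lay below every FLO1 library. MYH9 (ENSG00000100345; chromosome 22, 36281277 to 36388067, minus strand), the heavy chain of non-muscle myosin IIA, had 841, 838 and 851 CPM in OE33 and 3269, 3122 and 3553 CPM in FLO1 (-1.84 ± 0.11). TPM2 (ENSG00000198467; chromosome 9, 35681992 to 35690121, minus strand), another tropomyosin, averaged 118.7 ± 3.11 CPM in OE33 and 381.6 ± 15.9 CPM in FLO1 (SD, n = 3 each). CNN2 (ENSG00000064666; chromosome 19, 1026581 to 1039068, plus strand), a calponin of non-muscle cells, averaged 155.9 ± 4.17 CPM in OE33 and 254.3 ± 16.0 CPM in FLO1. These 3 genes were also lower in OE33, with TPM2 at -1.55 ± 0.09 and CNN2 at -0.58 ± 0.09 on the log2 scale.

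The other 4 genes were not called, although TAGLN2 (-0.13 ± 0.07) was with DESeq2 (-0.17). FLNA (ENSG00000196924; chromosome X, 154348524 to 154374638, minus strand), which cross-links actin filaments, averaged 1742 ± 28.7 CPM in OE33 and 1898 ± 175.2 CPM in FLO1, a log2 fold change of 0.01 ± 0.13 after normalization. TAGLN2 (ENSG00000158710; chromosome 1, 159918107 to 159925732, minus strand), the transgelin of non-muscle cells, averaged 1024 ± 10.6 CPM in OE33 and 1224 ± 39.3 CPM in FLO1. CALD1 (ENSG00000122786; chromosome 7, 134744252 to 134970728, plus strand), which encodes caldesmon, averaged 6.73 ± 1.12 CPM in OE33 and 7.22 ± 0.868 CPM in FLO1. ACTA2 (ENSG00000107796; chromosome 10, 88935074 to 88991339, minus strand), the alpha actin of vascular smooth muscle, averaged 1.48 ± 0.397 CPM in OE33 and 1.70 ± 0.576 CPM in FLO1, close to the lower end of what was counted. Exons of ACTA2 overlap those of FAS on the opposite strand, which averaged 399.9 counts per library against 49.2 for ACTA2, and exons of TAGLN overlap those of PCSK7, which averaged 876.6 counts against 187.0 for TAGLN. The strand setting of the counting is not given in the sources used here, so reads in these overlaps cannot be told apart.

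Per kilobase of exon, TAGLN2 led in both lines, at 411.7 ± 4.26 CPM per kb in OE33 and 492.1 ± 15.8 CPM per kb in FLO1. In OE33 it was followed by FLNA (164.5 ± 2.71), MYH9 (93.6 ± 0.795), CNN2 (42.8 ± 1.14), TPM2 (36.5 ± 0.957) and TPM1 (2.97 ± 0.240), all in CPM per kb. CALD1, ACTA2, TAGLN and MYL9 stood between 0.684 and 0.349 CPM per kb in OE33, and the libraries of neighbours in that order overlapped. In FLO1 the order was MYH9 (367.8 ± 24.3), FLNA (179.3 ± 16.5), MYL9 (178.7 ± 17.3), TPM2 (117.5 ± 4.91), CNN2 (69.8 ± 4.39) and TPM1 (64.0 ± 2.63), followed by TAGLN at 2.82 ± 0.20 CPM per kb. In FLO1 the libraries of FLNA and MYL9 overlapped, as did those of CNN2 and TPM1, and CALD1 at 0.734 ± 0.0882 and ACTA2 at 0.571 ± 0.194 CPM per kb came last with overlapping libraries. MYL9 thus had the lowest mean in OE33, with libraries that overlapped those of TAGLN, while in FLO1 it stood level with FLNA.

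**Figure D1:**
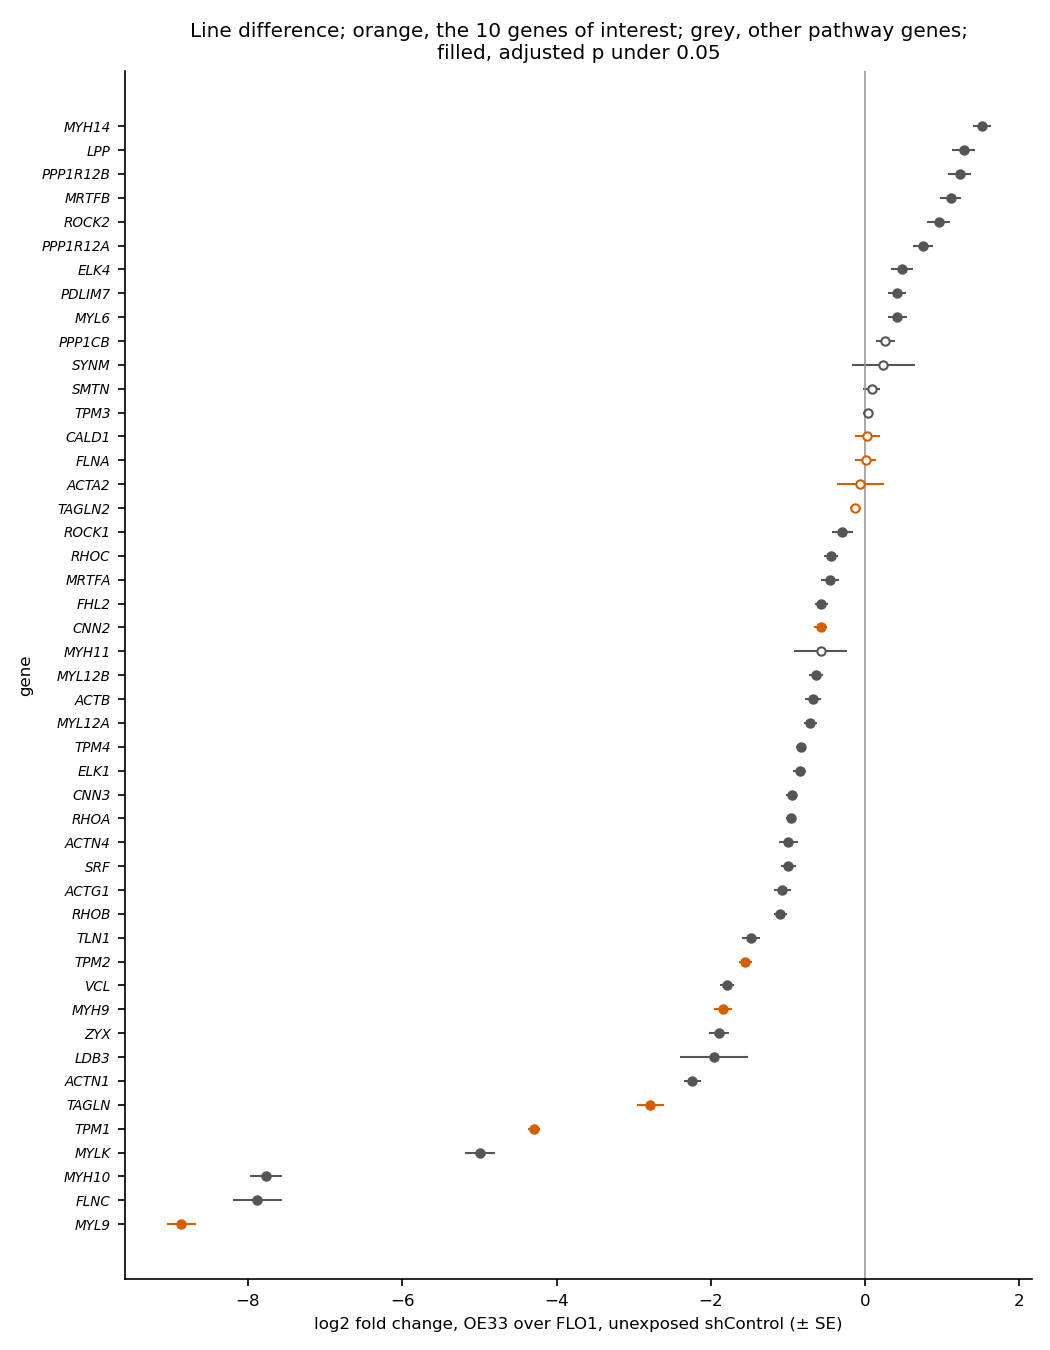
Log2 fold change of OE33 over FLO1 in unexposed shControl cells, with the standard error as bars (n = 3 libraries per line), for the 10 contractile genes in orange and 37 other pathway genes in grey, filled where called. MYL9 at -8.87 lies at the bottom and FLNA, CALD1, ACTA2 and TAGLN2 lie near 0. ACTA1, ACTG2, CNN1, LMOD1 and TAGLN3, with fewer than 10 counts over the 3 libraries of a line, are left out.

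The pathway genes gave 10 higher and 28 lower in OE33 of 43 tested, with a median log2 fold change of -0.68. Of all genes tested, 77.6% were called in either direction and 39.9% were called lower. MYH10, the heavy chain of non-muscle myosin IIB, had 0.743, 0.705 and 0.584 CPM in OE33 and 160.0, 164.6 and 161.5 CPM in FLO1, and fell by 7.77 ± 0.21 on the log2 scale (adjusted p = 1.57e-28, edgeR with Benjamini-Hochberg). FLNC, the muscle filamin, had 0.0371, 0.176 and 0.172 CPM in OE33 and 35.7, 30.5 and 37.7 CPM in FLO1. MYLK, which encodes myosin light chain kinase, was lower by -4.99 ± 0.20 (adjusted p = 3.36e-23, edgeR) and ACTN1, an actinin of stress fibres, by -2.24 ± 0.11 (adjusted p = 9.65e-20, edgeR). SRF itself was called lower in OE33 as well, while the myosin IIC chain MYH14 and the SRF cofactor MRTFB were called higher. MYOCD, the SRF cofactor of the smooth muscle lineage, had no counts in any OE33 library and at most 0.1105 CPM in FLO1.

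Because MYL9 was so abundant in FLO1, its few counts in OE33 were set beside those of other FLO1-rich genes. For this, 78 genes with a mean of at least 50 CPM in FLO1 and an OE33 median under 1% of that mean were summed, the 10 genes left out. Their sum in OE33 libraries was 0.207% to 0.383% of that in FLO1, with a median of 0.301%. This share is an upper limit on FLO1 RNA in an OE33 library, since OE33 may express some of these genes. MYL9 itself would meet the definition, with an OE33 median of 0.749% of its FLO1 mean of 527.8 CPM. The medians of the other 9 genes in OE33 lay well above that share, with TPM1 at 6.77% and TAGLN at 14.6% of their FLO1 means and the rest between 31.8% and 127.4%.

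In OE33 shControl cells MYL9 averaged 0.186% of its FLO1 mean when unexposed and 0.171% after ABS, at or below the 0.225% and 0.243% of the 78 genes. It had 19 to 39 counts per library there, and unexposed replicate 2 stood at 0.261% against 0.234%. The 53 genes with an OE33 median under 0.2% of FLO1 stood at 0.0248% unexposed and 0.0492% after ABS. As group means, MYL9 in shControl lay several fold higher than these 53 genes. It thus lay below the upper limit given by the 78 genes and above the lower one given by the 53. With shAPE1#1 it averaged 0.878% unexposed and 0.742% after ABS, and with shAPE1#3 0.947% and 0.833%, from 91 to 172 counts per library. The 78 genes stood at 0.340% and 0.303% with shAPE1#1 and at 0.303% and 0.352% with shAPE1#3. MYL9 in shAPE1 cells lay 2.32 to 3.40 CPM above the level that the share of the 78 genes as a sum would give, as group means. With a looser limit of 5%, 109 genes stood at 0.988% to 1.07% of FLO1 in the shAPE1 groups, above the group means of MYL9. Each share is only an upper limit, and a looser set raises it with genes that OE33 may express. The source of the MYL9 reads in OE33 was not tested.

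The 78 and 53 genes, but not the 109, moved in the same direction as MYL9. Among the 53 of them with an OE33 median under 0.2% of FLO1, the share was 0.0972% to 0.148% in the 4 shAPE1 groups, 0.0492% in shControl after ABS and 0.0248% in unexposed shControl. The 109 genes of the 5% limit stood at 1.03% with shAPE1#1, 0.988% with shAPE1#3 and 1.00% in shControl when unexposed, and at 1.04%, 1.07% and 1.10% after ABS. In unexposed cells MYL9 gained 0.692 percentage points of its FLO1 level with shAPE1#1 and 0.761 with shAPE1#3, against medians of 0.0768 and 0.0935 points over the 78 genes. Single genes of the 78 gained up to 1.15 and 0.738 points, and 2 with shAPE1#1 and 0 with shAPE1#3 gained as much as MYL9 or more. Both sets were defined by low medians over OE33 libraries, most of them shAPE1 libraries, so genes with large gains were largely kept out of them. These medians and counts therefore do not set MYL9 apart. Replicate 3 of OE33 shControl after ABS, which also held the fibroblast markers, had a share of 0.0937% over the 53 genes but MYL9 at 1.05 CPM, within the range of the other shControl libraries. In the opposite direction, 139 OE33-rich genes summed to 0.258% to 0.473% of their OE33 level in FLO1 libraries.

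**Figure D2:**
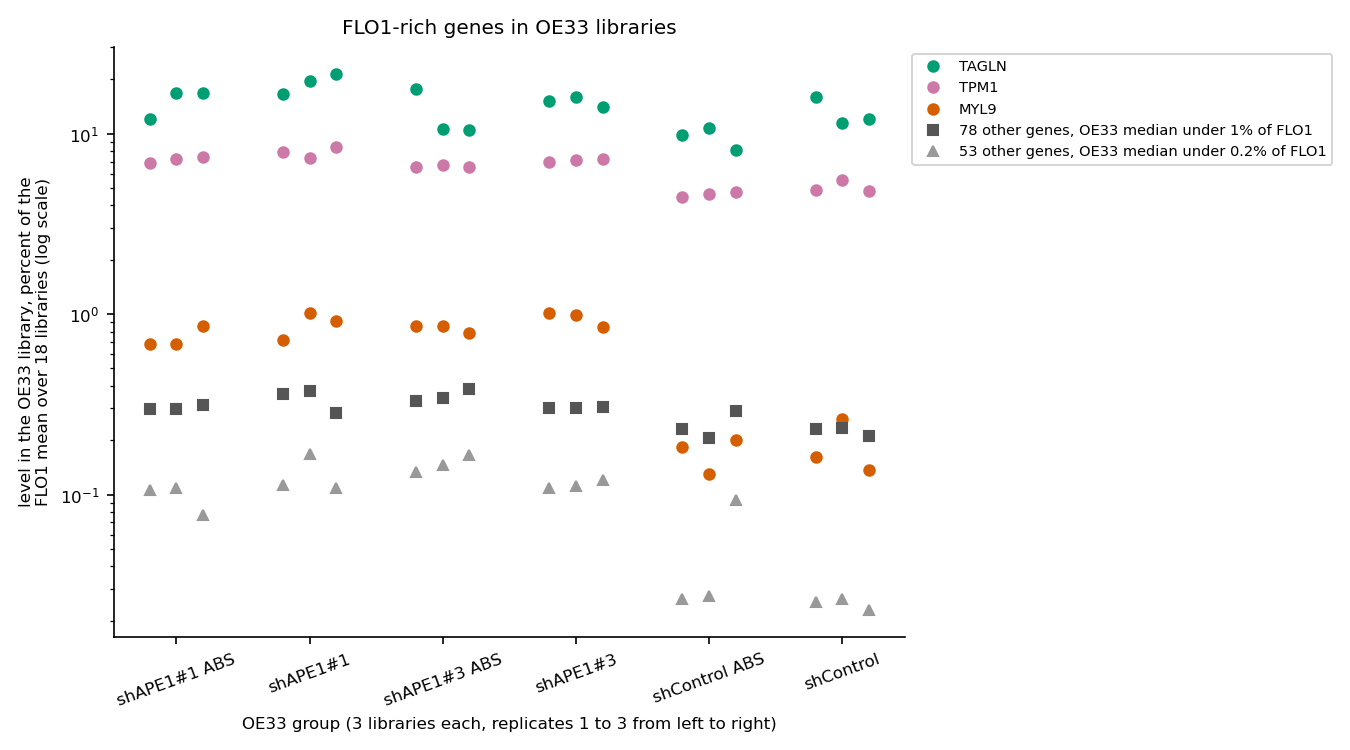
Levels in each OE33 library as a percent of the FLO1 mean on a log axis, for TAGLN, TPM1 and MYL9 and for the sums of 78 and 53 other FLO1-rich genes. MYL9 lies at 0.679% to 1.01% in the 12 shAPE1 libraries, above the squares of the 78 genes, and at 0.131% to 0.261% in the 6 shControl libraries, where it lies at or below them except in replicate 2 of the unexposed group. The triangles of the 53 genes also lie higher in shAPE1 libraries.

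In OE33, MYL9, the tropomyosin TPM1, the myosin chain MYH9 and filamin A were higher in unexposed APE1 knockdown cells than in control cells, MYL9 by several fold and the others by less than 1 log2 unit. In unexposed cells 4 of the 10 genes were called with shAPE1#1, all higher, beside 16.4% of the 15540 genes tested called in either direction and 8.24% called higher, and 5 of 10 with shAPE1#3, all higher, beside 21.7% and 11.2%. The median log2 fold change over the 10 genes was 0.32 with shAPE1#1 and 0.28 with shAPE1#3, and over all genes it was 0.006 with shAPE1#1 and -0.003 with shAPE1#3. After ABS 3 of 10 were called with shAPE1#1, beside 15.8% in either direction and 7.34% higher, and 5 of 10 with shAPE1#3, beside 18.1% and 8.75%, again all higher.

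MYL9 had 3.78, 5.31 and 4.81 CPM with shAPE1#1, 5.33, 5.20 and 4.47 CPM with shAPE1#3, and 0.854, 1.37 and 0.721 CPM in shControl, all unexposed. After ABS it had 3.58, 3.61 and 4.56 CPM with shAPE1#1, 4.54, 4.52 and 4.13 CPM with shAPE1#3, and 0.969, 0.690 and 1.05 CPM in shControl. Every shAPE1 library lay above every shControl library, by a log2 fold change of 2.23 ± 0.22 with shAPE1#1 and 2.36 ± 0.22 with shAPE1#3 unexposed, and of 2.06 ± 0.22 and 2.27 ± 0.22 after ABS. In shAPE1 cells MYL9 still reached no more than 1.01% of its FLO1 mean, and in these bulk cultures more RNA per cell and more cells with the RNA cannot be told apart.

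TPM1 had 59.4, 54.97 and 63.6 CPM with shAPE1#1, 52.6, 53.5 and 54.7 CPM with shAPE1#3, and 36.6, 41.8 and 36.4 CPM in unexposed shControl. The shAPE1 libraries did not overlap those of shControl, with log2 fold changes of 0.63 ± 0.07 and 0.51 ± 0.07. After ABS TPM1 had 51.8, 54.2 and 56.2 CPM with shAPE1#1, 49.5, 50.3 and 49.0 CPM with shAPE1#3, and 33.5, 34.7 and 35.8 CPM in shControl (0.60 ± 0.07 and 0.52 ± 0.07). MYL9 and TPM1 were the genes called with both shRNAs in both exposures, and they kept those calls in each alternative fit.

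MYH9 had 1178, 995 and 910 CPM with shAPE1#1, 1302, 1222 and 1302 CPM with shAPE1#3, and 841, 838 and 851 CPM in unexposed shControl. The rise was 0.29 ± 0.08 with shAPE1#1 and 0.62 ± 0.08 with shAPE1#3. With shAPE1#1 the call was lost in 3 of the 18 fits that leave out a library. One of them left out replicate 1 of shAPE1#1, which stood highest (0.18, adjusted p = 0.158, edgeR). After ABS MYH9 rose with shAPE1#3 (0.37 ± 0.08), and with shAPE1#1 its log2 fold change was 0.15 and not called. FLNA had 2447, 2272 and 1994 CPM with shAPE1#1, 2491, 2279 and 2655 CPM with shAPE1#3, and 1716, 1772 and 1737 CPM in unexposed shControl. No shAPE1 library fell within the shControl range, and FLNA rose by 0.36 ± 0.08 and 0.53 ± 0.08. After ABS FLNA rose with shAPE1#3 (0.27 ± 0.08), a call lost in 5 of the 18 fits that leave out a library, and with shAPE1#1 its log2 fold change was 0.14 and not called.

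CNN2 was higher by small amounts, with 169.6, 172.5 and 167.3 CPM with shAPE1#1, 175.9, 177.3 and 175.0 CPM with shAPE1#3 and 151.3, 159.4 and 157.0 CPM in unexposed shControl. Its groups did not overlap. CNN2 was called over shControl with shAPE1#3 unexposed (0.20 ± 0.06), with shAPE1#3 after ABS (0.27 ± 0.06) and with shAPE1#1 after ABS (0.21 ± 0.06). The calls with shAPE1#3 unexposed and with shAPE1#1 after ABS were lost without a filter on low counts. They were also lost in 5 and 4 of the 18 fits that leave out a library. CALD1 averaged 8.64 ± 0.755 CPM with shAPE1#1, 8.44 ± 0.952 CPM with shAPE1#3 and 6.73 ± 1.12 CPM in unexposed shControl, and was not called (0.36 and 0.34). After ABS it was called only without OE33 shControl replicate 3 after ABS, the library with fibroblast markers (0.63 with shAPE1#1 and 0.49 with shAPE1#3), and, for shAPE1#1, also without replicate 3 of its own group after ABS (0.50) and with DESeq2 (0.42). TAGLN, with 1.84, 2.19 and 2.39 CPM with shAPE1#1 and 1.78, 1.27 and 1.34 CPM in shControl, was not called either (0.55). With shAPE1#3 TAGLN had 1.69, 1.78 and 1.56 CPM and was not called. After ABS it had 1.34, 1.87 and 1.87 CPM with shAPE1#1, above all shControl libraries at 1.10, 1.20 and 0.900 CPM. With shAPE1#3 after ABS it had 1.96, 1.18 and 1.17 CPM. Neither was called by edgeR, at 0.53 to 0.76 and 0.15 to 0.54 over the 18 fits that leave out a library. TPM2, TAGLN2 and ACTA2 were called with neither shRNA, with log2 fold changes between -0.52 and 0.18 unexposed. With shAPE1#1 after ABS, TAGLN2 gained a call in 2 of the 18 fits that leave out a library (-0.21 to -0.12 over all 18). In the same 18 fits ACTA2, from few counts, lay at -1.10 to -0.50 and was never called. The epithelial marker sum was lower in the unexposed shAPE1 libraries of OE33, at 17280 to 19016 CPM with shAPE1#1, 17503 to 18339 CPM with shAPE1#3 and 21228 to 22982 CPM in shControl. The difference lay mainly in the keratin KRT19 (8752 CPM with shAPE1#1, 8664 CPM with shAPE1#3 and 12387 CPM in shControl), while EPCAM had 593.7, 570.0 and 586.3 CPM and CDH1 348.5, 417.6 and 348.8 CPM in these groups. The part of these markers in the results was not tested. Between shAPE1#3 and shAPE1#1 none of the 10 genes was called in unexposed OE33 by edgeR, beside 0% of all genes. DESeq2 called MYH9 (0.33), and 1 of the 10 had an unadjusted p under 0.05, as had 1248 of all 15540 genes tested. Since no gene of the whole table was called between these groups, whether they carry distinct shRNAs could not be checked from the data, and the pair is not taken as independent evidence.

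**Figure D3:**
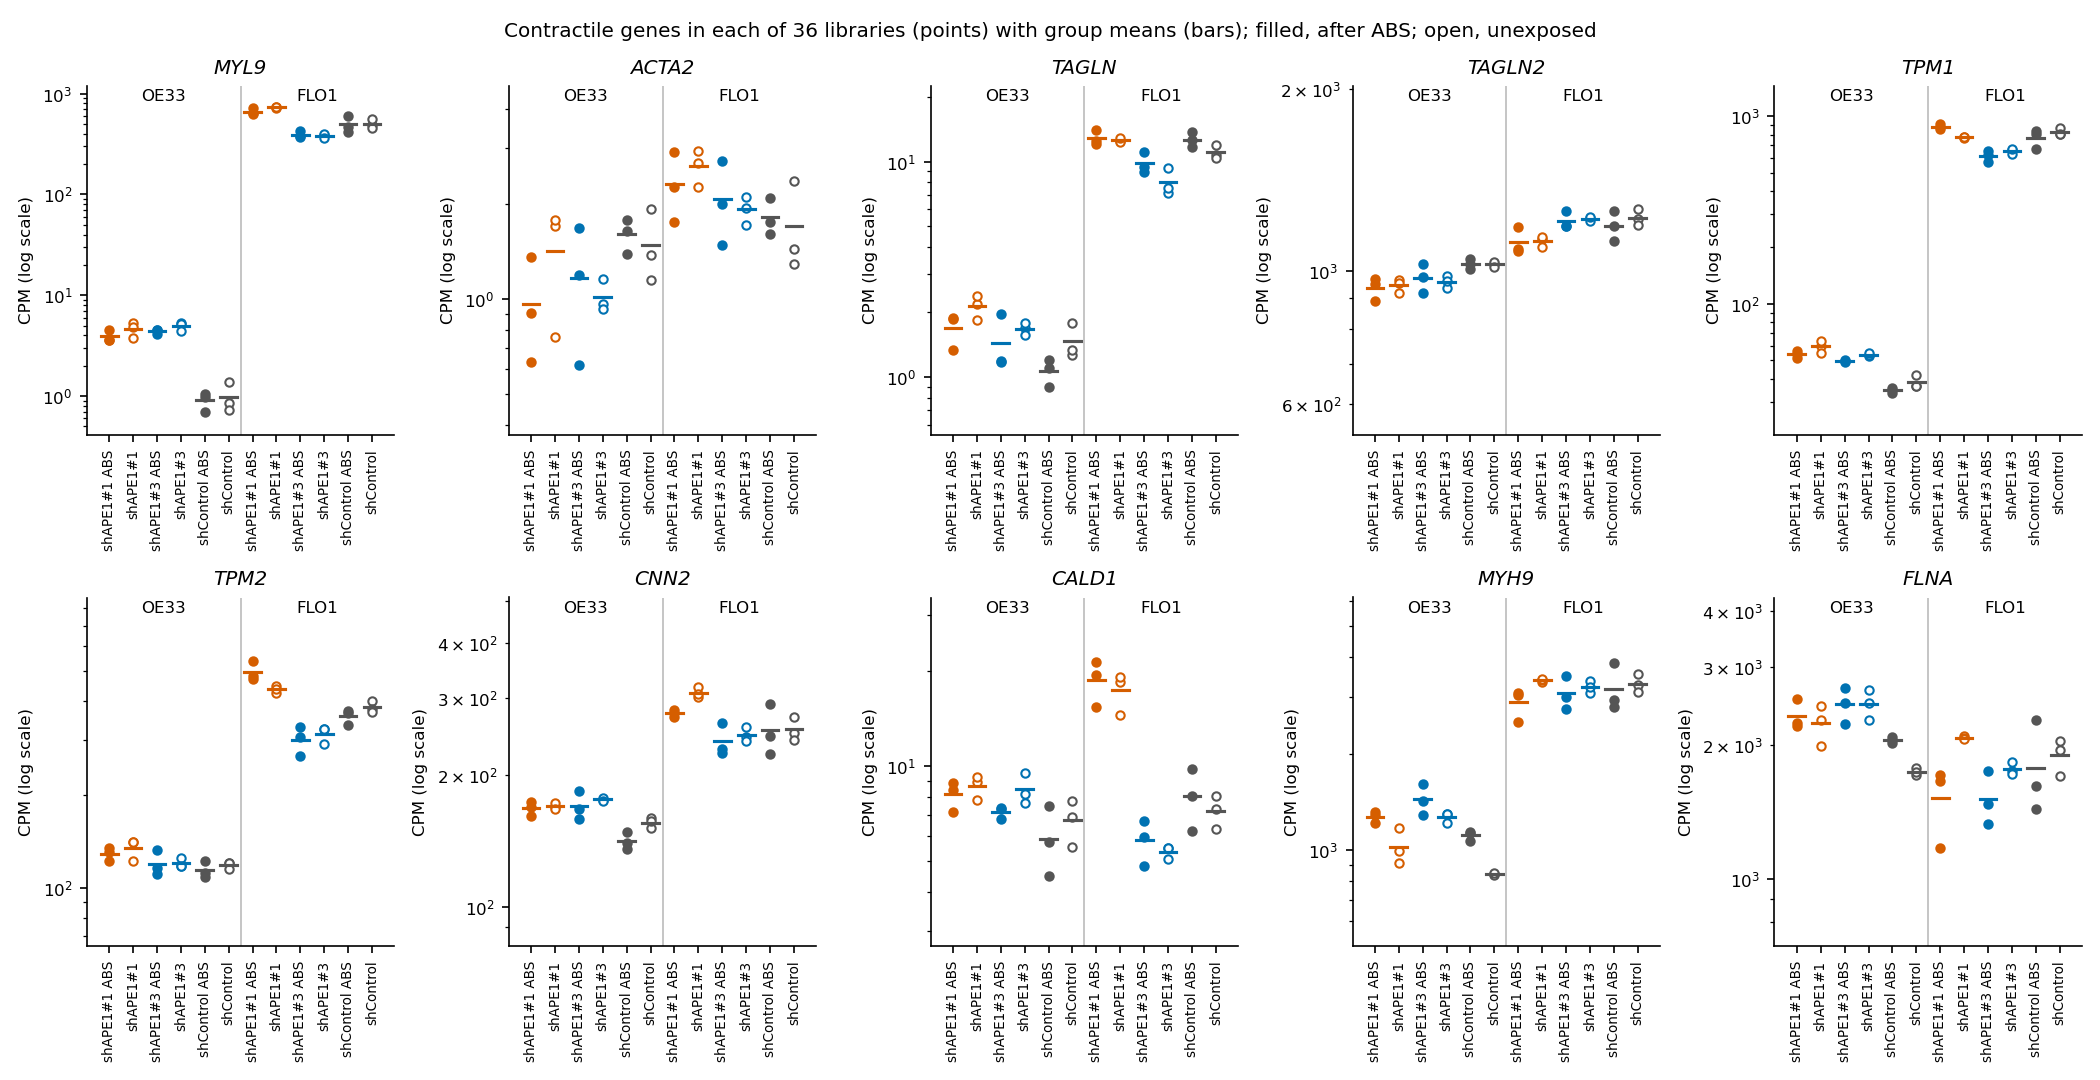
CPM on a log axis in each of the 36 libraries (points) with group means (bars), for the 10 genes, OE33 on the left of each panel and FLO1 on the right. Filled points are after ABS and open points unexposed. MYL9 and TPM1 lie higher in all 12 shAPE1 libraries of OE33 than in its 6 shControl libraries, and in FLO1 MYL9 lies higher with shAPE1#1 and lower with shAPE1#3 than in unexposed shControl.

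In FLO1, caldesmon and MYL9 were higher with shAPE1#1 than in control cells, while with shAPE1#3 only the tropomyosin TPM1 was called, and lower. By edgeR over all 18 FLO1 libraries no gene was called in opposite directions against shControl. Without replicate 2 of shControl after ABS, MYL9 was in unexposed cells, as were TPM2 and CALD1 after ABS. These were then called higher with shAPE1#1 and lower with shAPE1#3. With shAPE1#1, 2 of 10 genes were called in unexposed cells, both higher, beside 6.74% of the 16868 genes tested called in either direction and 4.52% called higher. After ABS 3 of 10 were called with it, all higher, beside 16.6% and 8.26%. With shAPE1#3, 1 of 10 was called in unexposed cells, lower, beside 0.788% called in either direction and 0.622% called lower. After ABS none was called with shAPE1#3 by edgeR, beside 0.783%, where 5 had an unadjusted p under 0.05 and DESeq2 called 1. Of all 16868 genes tested, 1479 had an unadjusted p under 0.05 in that comparison. The median log2 fold change over the 10 genes in unexposed cells was 0.18 with shAPE1#1 and -0.21 with shAPE1#3, and over all genes it was -0.016 with shAPE1#1 and at 0 to 2 decimals with shAPE1#3.

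CALD1 had 14.5, 18.4 and 19.1 CPM with shAPE1#1, 5.51, 5.51 and 5.08 CPM with shAPE1#3, and 7.30, 8.05 and 6.32 CPM in unexposed shControl. All shAPE1#1 libraries lay above and all shAPE1#3 libraries below the shControl range, and the rise with shAPE1#1 (1.26 ± 0.15) was called while the difference with shAPE1#3 (-0.44 ± 0.16) was not. After ABS CALD1 had 15.3, 19.4 and 21.3 CPM with shAPE1#1 and 9.82, 6.25 and 8.03 CPM in shControl, a rise of 1.24 ± 0.15. Caldesmon had the largest change of the 10 genes with shAPE1#1 in both exposures.

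MYL9 had 744, 715 and 729 CPM with shAPE1#1, 391, 394 and 364 CPM with shAPE1#3, and 494, 461 and 557 CPM in unexposed shControl. The 3 groups did not overlap, and MYL9 rose by 0.53 ± 0.12 with shAPE1#1, while -0.41 ± 0.12 with shAPE1#3 was not called. Without replicate 2 of unexposed shControl the rise with shAPE1#1 was 0.45 and lost its call (adjusted p = 0.0621, edgeR). Without replicate 2 of shControl after ABS, which stands apart, MYL9 (-0.42), TAGLN (-0.48) and TPM2 (-0.30) were also called lower with shAPE1#3 in unexposed cells, and TPM1 (-0.39), TPM2 (-0.28) and CALD1 (-0.58) after ABS. After ABS MYL9 had 719, 637 and 621 CPM with shAPE1#1 and 420, 606 and 471 CPM in shControl (0.42 ± 0.12), a call lost in the fit to these groups alone (adjusted p = 0.219, edgeR) and in 3 of the 18 fits that leave out a library (0.28 to 0.37). Without shControl replicate 2 after ABS, MYL9 (0.62), TPM2 (0.48) and CALD1 (1.12) kept their calls after ABS and CNN2 (0.30) gained one.

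TPM1 had 659, 631 and 671 CPM with shAPE1#3 and 804, 863 and 805 CPM in unexposed shControl. It fell by 0.35 ± 0.08 on the log2 scale, and the call was lost in 12 of the 18 fits that leave out a library, with adjusted p of 0.0502 to 0.184 (edgeR). With shAPE1#1 TPM1 had 769, 773 and 780 CPM, a log2 fold change of -0.10 that was not called. TPM2 had 538, 469 and 480 CPM with shAPE1#1 and 372, 335 and 367 CPM in shControl after ABS, and rose by 0.49 ± 0.09. MYH9, FLNA, CNN2, TAGLN, TAGLN2 and ACTA2 were called with neither shRNA against shControl, in either exposure.

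The direct comparison of shAPE1#3 with shAPE1#1 in unexposed FLO1 cells sets no shControl library against either group. All 18 FLO1 libraries, shControl among them, still entered the filter, the scaling and the estimate of the spread. In that comparison 6 of 10 genes were called, beside 12.2% of all genes tested called in either direction. All 6 were lower with shAPE1#3, beside 7.52% of all genes called lower. They were CALD1 (-1.70 ± 0.15), MYL9 (-0.94 ± 0.12), TAGLN (-0.65 ± 0.13), TPM2 (-0.48 ± 0.09), CNN2 (-0.33 ± 0.10) and TPM1 (-0.25 ± 0.08). TAGLN had 9.32, 7.17 and 7.52 CPM with shAPE1#3 and 12.4, 12.3 and 12.8 CPM with shAPE1#1, and TPM2 had 326, 292 and 325 CPM with shAPE1#3 and 447, 424 and 438 CPM with shAPE1#1. The libraries of the shRNAs did not overlap in either gene. The calls of TPM1 and CNN2 were lost in 8 and 6 of the 18 fits that leave out a library. APEX1 was 1.46-fold higher with shAPE1#3, and the epithelial marker sum was 2538 to 2575 CPM with shAPE1#3, 3695 to 3907 CPM with shAPE1#1 and 2418 to 2747 CPM in shControl, so residual target and markers moved with the shRNA as well, and their part was not tested.

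**Figure D4:**
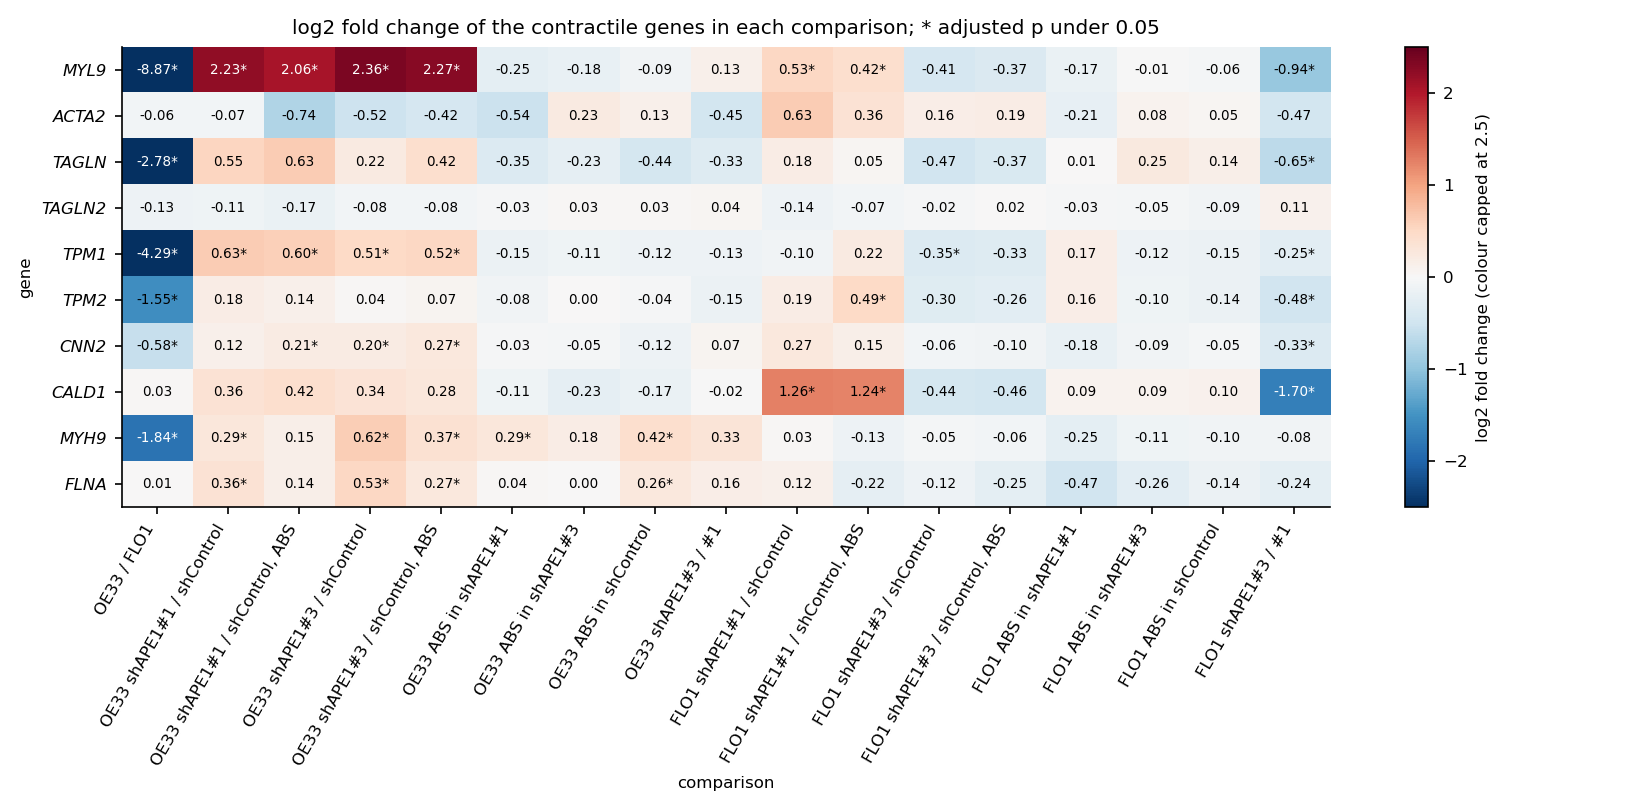
Log2 fold change of each gene (rows) in each comparison (columns), OE33 columns left of FLO1 columns, with an asterisk where called and the colour capped at 2.5. In the OE33 knockdown columns MYL9 is deep red, and TPM1, MYH9, FLNA, TAGLN, CALD1 and CNN2 are pale red to near white. The FLO1 shAPE1#1 columns are red for CALD1 and paler for MYL9, ACTA2 and TPM2, and the FLO1 shAPE1#3 columns are mostly pale blue.

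Few of the 10 genes were called 6 h after acidic bile salts. The libraries with and without ABS did not overlap for 5 of the 10 genes in OE33 shControl, 1 in OE33 shAPE1#1, 2 in OE33 shAPE1#3, 0 in FLO1 shControl, 5 in FLO1 shAPE1#1 and 0 in FLO1 shAPE1#3. The share of all genes without overlap was not counted, so these numbers cannot be read as particular to the 10 genes. In OE33 shControl cells 2 of 10 were called, both higher, beside 8.4% of all genes called in either direction and 5.89% called higher. MYH9 had 1070, 1134 and 1140 CPM after ABS and 841, 838 and 851 CPM in unexposed cells, a rise of 0.42 ± 0.08. FLNA had 2027, 2087 and 2048 CPM after ABS and 1716, 1772 and 1737 CPM in unexposed cells, a rise of 0.26 ± 0.08 whose call was lost in 9 of the 18 fits that leave out a library. In OE33 shAPE1#1 cells 1 of 10 was called, higher, beside 4.73% and 3.02%: MYH9 had 1292, 1213 and 1318 CPM after ABS and 1178, 995 and 910 CPM in unexposed cells (0.29 ± 0.08), and the call was lost in 5 of the 18 fits that leave out a library, with the lowest value (0.21, adjusted p = 0.216, edgeR) without replicate 3 of unexposed shAPE1#1. In OE33 shAPE1#3 cells none was called by edgeR or DESeq2, beside 2.26%. An unadjusted p under 0.05 was found for 1 of the 10 and for 2426 of all 15540 genes tested.

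In FLO1 none of the 10 genes was called after ABS by edgeR, in shControl cells (beside 3%), shAPE1#1 cells (beside 5.01%) or shAPE1#3 cells (beside 1.81%). The numbers with an unadjusted p under 0.05 were 0 in shControl, 3 in shAPE1#1 and 0 in shAPE1#3, and DESeq2 called 0, 1 and 0. Of all 16868 genes tested, 2536, 3244 and 1955 had such an unadjusted p in these groups. The gene DESeq2 called was FLNA, with 1175, 1716 and 1663 CPM after ABS and 2096, 2075 and 2059 CPM in unexposed shAPE1#1 cells (-0.47 in edgeR, -0.48 in DESeq2). All log2 fold changes in FLO1 shControl cells lay between -0.15 and 0.14. Without the replicate 2 that stands apart FLNA was at -0.39, MYH9 at -0.28 and MYL9 at -0.26, none of them called. The interaction of knockdown and ABS, tested for each shRNA and line, was called for none of the 10 genes by edgeR or DESeq2, where all genes tested gave 0% in 3 of these comparisons and 0.0129% with shAPE1#3 in OE33. The numbers with an unadjusted p under 0.05 were 0 with shAPE1#1 and 2 with shAPE1#3 in OE33, and 2 with shAPE1#1 and 0 with shAPE1#3 in FLO1. Among all genes tested they were 557 and 617 of 15540 in OE33, and 1615 and 341 of 16868 in FLO1.

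The lines were then compared in their response. The unexposed knockdown effect, as the mean of both shRNAs, was larger in OE33 than in FLO1 for 3 of 10 genes, beside 6.37% of all genes tested called in either direction and 2.74% called higher. The difference in log2 fold change was 2.22 ± 0.23 for MYL9, 0.77 ± 0.09 for TPM1 and 0.44 ± 0.13 for MYH9. In FLO1 this mean pools 0.53 with shAPE1#1 and an uncalled -0.41 with shAPE1#3 for MYL9 and MYL9 in OE33 shControl had only 21 to 39 counts per library. The ABS response of shControl cells differed between lines for none of the 10 genes by edgeR or DESeq2, beside 1.73%. An unadjusted p under 0.05 was found for 3 of the 10 and for 2227 of all 18199 genes tested. Without the FLO1 shControl replicate that stands apart, MYH9 (0.72) and FLNA (0.67) were called as higher in OE33 than in FLO1.

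The 47 other genes of contraction and of SRF signalling were counted in the same comparisons, beside the shares of all genes called in either direction. Of the 38 tested in OE33, 8 rose and 1 fell with shAPE1#1 in unexposed cells (16.4% of all genes), with a median log2 fold change of 0.06, and 13 rose and 1 fell with shAPE1#3 (21.7% of all genes), with a median of 0.15. CNN3, the acidic calponin, had 106.1, 104.3 and 109.6 CPM with shAPE1#1, 115.4, 108.8 and 101.1 CPM with shAPE1#3, and 66.6, 66.6 and 69.2 CPM in shControl. It rose by 0.66 ± 0.07 (adjusted p = 6.36e-08, edgeR with Benjamini-Hochberg) and 0.71 ± 0.07 (adjusted p = 2.31e-08, edgeR), with no overlap between the shAPE1 and shControl libraries. TPM4, a tropomyosin of non-muscle cells, rose by 0.39 ± 0.06 (adjusted p = 5.05e-05, edgeR) and 0.40 ± 0.06 (adjusted p = 3.05e-05, edgeR). TAGLN3, a transgelin best known from neurons, rose by 0.77 ± 0.20 and 0.80 ± 0.21 from a low level.

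With shAPE1#3 ACTB, the cytoplasmic beta actin, had 5967, 6045 and 6122 CPM, against 4313, 4281 and 4114 CPM in shControl, and rose by 0.53 ± 0.08 (adjusted p = 1.32e-05, edgeR). ACTN1 rose by 0.45 ± 0.08 (adjusted p = 9.70e-05, edgeR). Of the 5 genes of SRF and its cofactors tested in OE33, SRF was called higher with shAPE1#1 (0.26), and SRF (0.25) and MRTFA (0.37) were called higher with shAPE1#3. Of the 9 filamins, actinins and adhesion linkers tested, 2 were called higher with shAPE1#1 and 5 with shAPE1#3. SMTN, a smoothelin, rose with shAPE1#1 (0.34 ± 0.08, adjusted p = 0.00358, edgeR).

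In OE33 after ABS, 3 pathway genes rose and 4 fell with shAPE1#1, beside 15.8% of all genes called, and 7 rose and 2 fell with shAPE1#3, beside 18.1%. CNN3 rose with both shRNAs (0.57 ± 0.07 and 0.53 ± 0.07), as did TPM4 (0.32 ± 0.06 and 0.34 ± 0.06). With shAPE1#1 MYH14 fell by 0.39 ± 0.08, and with shAPE1#3 ACTB (0.37 ± 0.08) and MRTFA (0.34 ± 0.08) rose.

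In FLO1 few pathway genes were called with either shRNA in unexposed cells. Of 42 pathway genes tested in unexposed cells, 3 rose and 1 fell with shAPE1#1 (6.74% of all genes), with a median log2 fold change of 0.08, and none rose and 1 fell with shAPE1#3 (0.788% of all genes), with a median of -0.05. RHOB, a small GTPase of endosomes and stress fibres, had 80.0, 74.4 and 78.2 CPM with shAPE1#1 and 118.9, 104.1 and 113.7 CPM in shControl, and fell by 0.54 ± 0.09 (adjusted p = 0.000792, edgeR). VCL, the adhesion linker vinculin, rose by 0.40 ± 0.10 with shAPE1#1 (adjusted p = 0.0153, edgeR), a call lost in 4 of the 18 fits that leave out a library. TPM4 fell by 0.37 ± 0.08 with shAPE1#3 (adjusted p = 0.0196, edgeR), the direction opposite to that in OE33, and the call was lost in 4 of the 18 fits that leave out a library. After ABS 8 rose and 1 fell with shAPE1#1, beside 16.6% of all genes called, among them the myosin light chains MYL6 (0.55 ± 0.12) and MYL12B (0.36 ± 0.10) and the phosphatase catalytic subunit PPP1CB (0.49 ± 0.14), and RHOB fell by 0.43 ± 0.09. Without the shControl replicate 2 that stands apart these were 0.54, 0.29, 0.27 and -0.33, all still called, whereas PPP1CB lost its call in 2 of the 18 fits that leave out a library and reached 0.68 without shControl replicate 1 after ABS. TPM4 alone was called with shAPE1#3 after ABS, at -0.35 ± 0.08, a call lost in 8 of those 18 fits. Between the shRNAs, shAPE1#3 had more RHOB (0.89 ± 0.09, adjusted p = 1.04e-06, edgeR) and less VCL, ACTN4 and MYL6 than shAPE1#1 (-0.55, -0.47 and -0.47), of which the call of ACTN4 was lost in 6 of the 18 fits that leave out a library and that of MYL6 in 1.

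**Figure D5:**
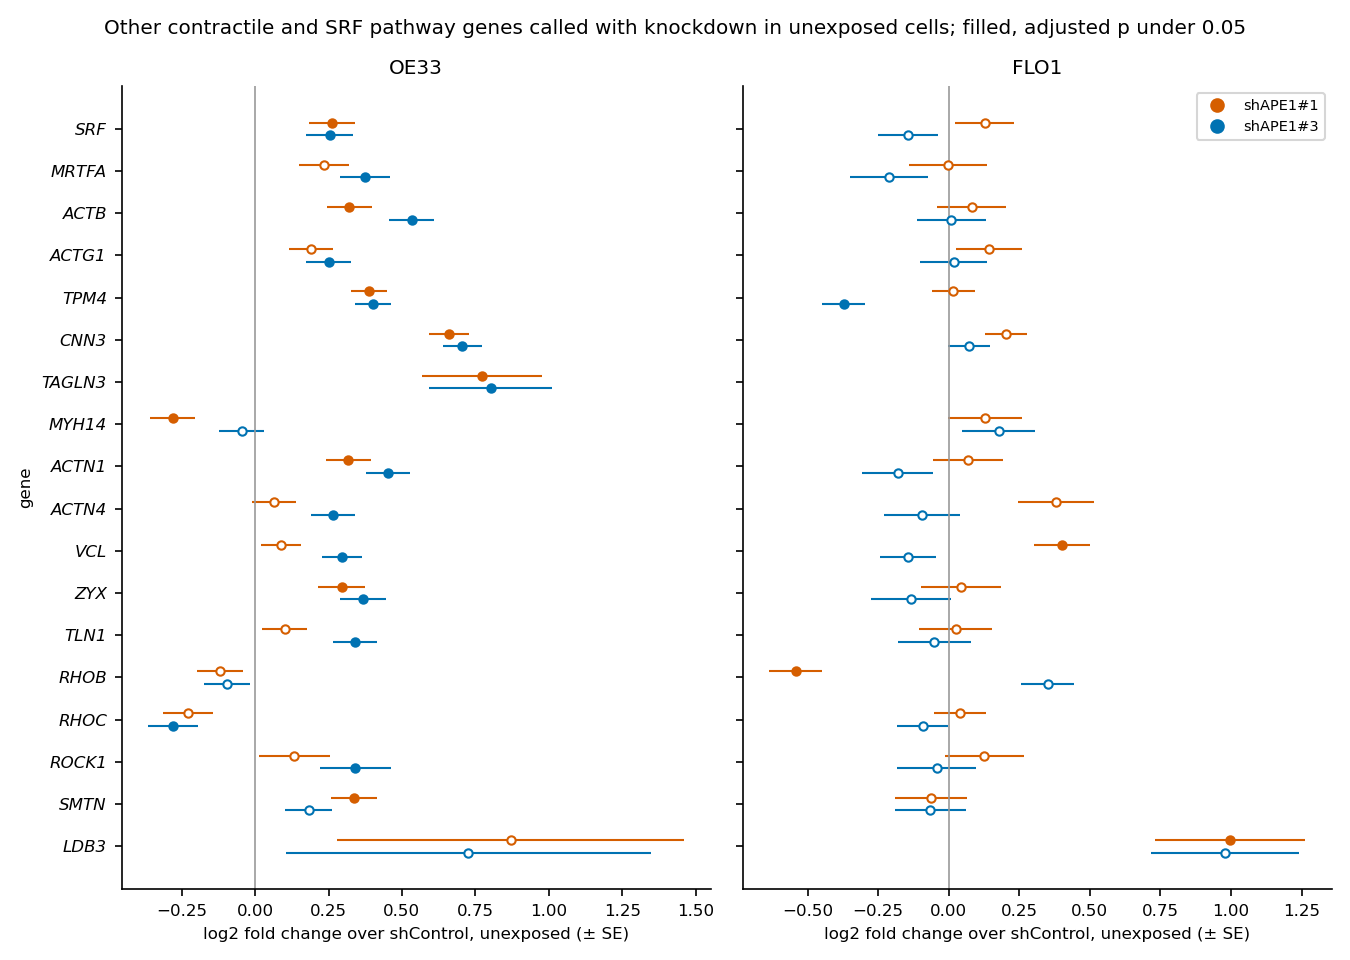
Log2 fold change over shControl with its standard error in unexposed OE33 (left) and FLO1 (right) for 18 other pathway genes called in at least 1 of these comparisons, filled where called. Horizontal scales differ between panels, and ACTG2, with fewer than 10 counts in a group, is left out. TAGLN3, at 0 in 16 of 18 FLO1 libraries, was kept despite that rule and is shown in OE33 alone. CNN3 at 0.66 and 0.71 and TPM4 at 0.39 and 0.40 in OE33 lie right of 0 with both shRNAs, whereas in FLO1 TPM4 lies at -0.37 with shAPE1#3.

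The pathway genes also gave the ABS response a few calls, beside shares of all genes called of 8.4% in OE33 shControl, 4.73% in OE33 shAPE1#1, 2.26% in OE33 shAPE1#3, 3% in FLO1 shControl, 5.01% in FLO1 shAPE1#1 and 1.81% in FLO1 shAPE1#3. In OE33 shControl cells 6 of 38 rose and none fell, among them MYH14 (0.36 ± 0.08), MRTFA (0.34 ± 0.08) and VCL (0.30 ± 0.07). The call of MRTFA was lost without replicate 3 of shControl after ABS (0.30, adjusted p = 0.0731, edgeR). In OE33 shAPE1#1 cells RHOB rose (0.27 ± 0.08, a call lost in 12 of the 18 fits that leave out a library) and the light chain MYL12A fell by 0.36 ± 0.08. In OE33 shAPE1#3 cells none of the 38 was called by edgeR. There 8 of the 38 had an unadjusted p under 0.05, as had 2426 of all 15540 genes tested. In FLO1 2 of 42 rose in shControl cells, of which RHOB had 160.9, 182.8 and 160.1 CPM after ABS and 118.9, 104.1 and 113.7 CPM in unexposed cells (0.53 ± 0.09, adjusted p = 0.00131, edgeR). In FLO1 shAPE1#1 cells 3 rose and 2 fell, with RHOB (0.64 ± 0.09) and the LIM protein FHL2 (0.36 ± 0.09) higher and MRTFB (-0.62 ± 0.15) and MYLK (-0.43 ± 0.12) lower. Of the 18 fits that leave out a library, the call was lost in 11 for MYLK (-0.52 to -0.25), 4 for FHL2 and 3 for MRTFB (-0.79 to -0.44). In FLO1 shAPE1#3 cells 1 rose. The knockdown effect was larger in OE33 than in FLO1 for TPM4 (0.55 ± 0.08, adjusted p = 1.02e-05, edgeR) and CNN3 (0.53 ± 0.08, adjusted p = 2.98e-05, edgeR), 2 of 43 pathway genes, beside 6.37% of all genes. The ABS response of shControl cells was larger in OE33 for MYH10 (1.36 ± 0.33) and VCL (0.46 ± 0.12), 2 of 43, beside 1.73% of all genes. Replicate 3 of OE33 shControl after ABS had 2.39 CPM of MYH10 against 1.03 and 0.762 CPM in replicates 1 and 2, and without it the difference was 0.71 and not called (adjusted p = 0.374, edgeR). The call of VCL was lost in 10 of the 36 fits that leave out a library.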

How the data were processed

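The deposited table holds raw read counts per Ensembl gene in 36 libraries of polyA RNA, made by the authors with Trimmomatic 0.36, STAR 2.5.2b, featureCounts and Subread 1.5.2 on GRCh38, per the submitters' processing notes. For annotation release, strand setting and multi-mapping reads, nothing was stated (not given in the sources used here). GENCODE release 29 matched 56898 of 57500 gene IDs, and the 602 unmatched IDs held 0.018% of the counts. One deposited column (FLO1 shAPE1#3 ABS, replicate 3) has an additional suffix in its name and was used as named.

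Counts were tested with edgeR 4.0.16 in R 4.3.3, by robust quasi-likelihood fits with a mean per group, after filterByExpr at its defaults and TMM scaling, over 18 libraries per line or all 36 for differences between lines, with Benjamini-Hochberg adjustment over all genes. The script was tested on simulated data. CPM values use library totals without TMM. DESeq2 1.42.0 was 1 of the alternatives. Replicates differed beyond sampling noise (chi-square per degree of freedom 2.41 to 69.66 over 36 pairs). Genes and lists were chosen with earlier results of these data known. All 10 genes are named throughout. Of the pathway genes, the rule names up to 4 called per comparison with the largest change and a mean log2 CPM of at least 1, and genes named beyond it (SRF, MRTFA, MRTFB and MYH14 among them) were chosen after their values were seen. Results on some pathway genes are not reported here.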

Additional observations from a re-analysis of the deposited data

Results flagged for a closer look

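The unexposed knockdown effect differed between OE33 and FLO1 in 3 of the 10 genes by the edgeR contrast of the effects themselves, with Benjamini-Hochberg adjustment. The difference, OE33 minus FLO1 on the log2 scale, was 2.22 for MYL9 (adjusted p = 1.22e-08, edgeR), 0.77 for TPM1 (adjusted p = 9.54e-08, edgeR) and 0.44 for MYH9 (adjusted p = 0.0364, edgeR). MYL9 and TPM1 kept this call in all 36 fits that leave out a library, and MYH9 lost it in 13 of them.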

How the results depend on the processing

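No value reversed its sign among those called. In the counts of the 10 genes called, TMM against RLE size factors moved only FLO1 shAPE1#3 after ABS, to 1. Without the filter on low counts the numbers became 1 for ABS in FLO1 shAPE1#1, 2 for FLO1 shAPE1#3 unexposed, 1 for FLO1 shAPE1#3 after ABS, 1 for OE33 shAPE1#3 against shAPE1#1 and 2 for the line difference of the ABS response. With DESeq2 they became 1 for ABS in FLO1 shAPE1#1, 3 and 1 for FLO1 shAPE1#3 unexposed and after ABS, 5 for OE33 shAPE1#1 after ABS and 1 for OE33 shAPE1#3 against shAPE1#1. Fits to only the groups compared gave 4 and 1 for FLO1 shAPE1#1 unexposed and after ABS, 3 for ABS in FLO1 shAPE1#1, 4 for FLO1 shAPE1#3 unexposed and 0 for ABS in OE33 shAPE1#1. The cause of these shifts was not tested. The replicate numbers showed no sign of pairing the samples. Deviations of same-numbered libraries correlated at a median of 0.01 in OE33 and -0.012 in FLO1, and those of differently numbered libraries at 0.001 in both lines. These values do not show how the cultures were set up. A replicate block gave 0 for FLO1 shAPE1#3 unexposed and 1 for ABS in OE33 shControl, changing no other count by over 1.5 times. Leaving out a library gave ranges of 1 to 3 for FLO1 shAPE1#1 unexposed, 0 to 4 and 0 to 3 for FLO1 shAPE1#3 unexposed and after ABS, 0 to 1 for ABS in FLO1 shAPE1#1, 0 to 1 for ABS in OE33 shAPE1#1, 1 to 2 for ABS in OE33 shControl, 0 to 1 for OE33 shAPE1#3 against shAPE1#1 and 0 to 2 for the line difference of the ABS response. The share of FLO1-rich genes in OE33, with a median of 0.301%, was 0.108% with a limit of 0.2% and 1.02% with a limit of 5%. ACTA2 and TAGLN in OE33, and MYL9 in OE33 shControl, at 0.621 to 2.39 CPM, rest on few reads, and small differences in them were not detectable at this depth.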
